A study of Mus musculus with 21 samples.

Results

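The regions described here are the tallest DNase I hypersensitive sites (DHS) that stayed at a similar height through early innate lymphoid development and carried no called TCF1 peak. They were found by merging the DHS peaks of 3 successive mouse bone marrow stages wherever peaks shared at least 1 bp, on chromosomes 1 to 19 and X of build mm9. A region was a member if its highest peak reached 30 tags or more in each stage, if its height scaled to the tags of the list was in ILCP between 0.5 and 2 times that in ALP, and if no TCF1 peak overlapped it. Of 102313 merged regions, 4003 were members. The members were thus chosen by their heights in all 3 stages, the ILCP over ALP ratio and the absence of a TCF1 peak, and these values are given as descriptions without a test.

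The stages were sorted from bone marrow of C57BL/6 mice. ALP, all-lymphoid progenitors, come first, EILP, early innate lymphoid progenitors, are intermediate, and ILCP, innate lymphoid cell precursors, come last. All sorted cells were Lin-, Kit+ and 2B4+. ALP were further a4b7-, Flt3high and IL-7Ra+, and both later stages were a4b7+ and Tcf7+, with EILP sorted as Thy1- and ILCP as Thy1+ and IL-7Ra+. Per the labels, ALP and ILCP came from Tcf7EGFP/+ mice and EILP from Tcf7EGFPnull/+ mice, so every group carried a Tcf7 reporter allele, whereas the file headers give WT in the name of each pooled tag file. Taking the labels as given, a value of EILP against ALP or ILCP mixes stage with genotype, and their parts cannot be told apart. DNase-seq, in which 300 cells per library were treated with 0.3 units of DNase I over 5 minutes, had 3 libraries per stage. TCF1 was measured by CUT&RUN in EILP alone, in 6 libraries of 500 cells, some of them technical repeats. Each assay and stage was available as 1 peak list called on pooled tags, so the values carry no error between replicates, and intervals cover counting only. A tag is 1 sequenced DNA end, and the height of a peak is the number of tags, each extended to 100 bp, that cover its summit. After filtering, ALP had 12420429 tags, EILP 11236009, ILCP 12681410 and TCF1 2418839. In bulk samples, a height cannot tell a larger share of open cells from more cutting in each cell. The sorted cells were not checked against marker genes, since the lists name no genes.

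DNase I cuts DNA where nucleosomes are displaced, and a DHS marks such a gap at a promoter, an enhancer, an insulator or another bound element. In mammalian genomes the DHS shared by many cell types are mostly promoters of broadly expressed genes and sites of the insulator protein CTCF, whereas DHS that differ between cell types are mostly distal enhancers. TCF1, the HMG-box factor encoded by Tcf7, is needed for the normal formation of innate lymphoid precursors. Whether a member was a promoter, an enhancer or a CTCF site was not analysed, because no gene annotation or genome sequence of mm9 was used here, and members are named by position.

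The height rule did nearly all of the selecting. Of the merged regions, 39851 had a peak in all 3 lists and 5067 reached 30 tags in each. Among these 5067, none had an ILCP height of 0.5 times the ALP height or less, and 1 had 2 times or more, which left 5066 strong stable regions. TCF1 peaks overlapped 1063 of them. A threshold in every list by itself removes regions that change. Of the 11482 regions with 30 tags or more in at least 1 list, 500 lacked a peak in another list, 692 had an ILCP over ALP ratio of 0.5 or less and 345 a ratio of 2 or more. The members covered 1.81 Mb, or 7.30% of the 24.8 Mb of merged DHS.

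**Figure D1:**
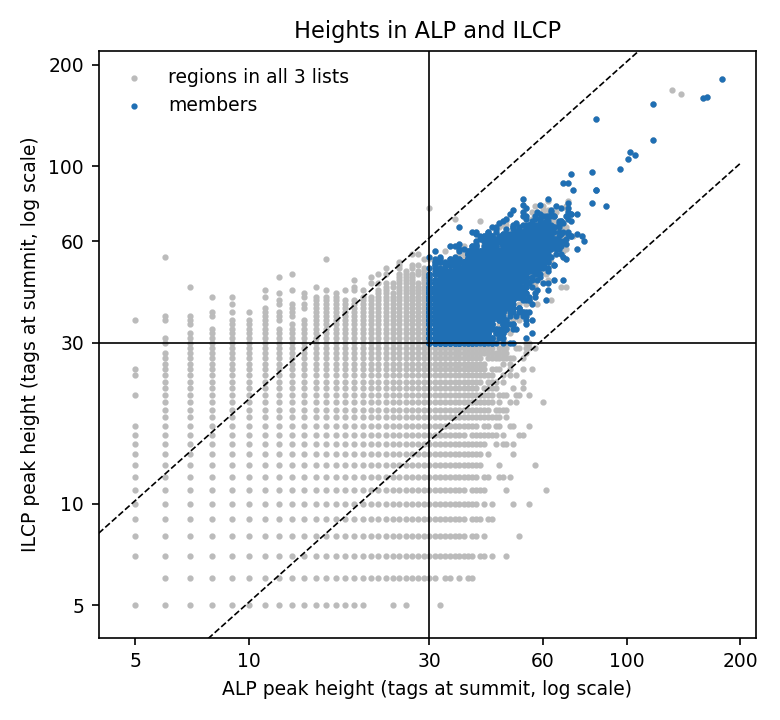
Peak height in ALP (x axis) and in ILCP (y axis), in tags at the summit on log scales, for the regions in all 3 lists (grey, one point for each pair of heights) and the 4003 members (blue, drawn on top). Solid lines mark 30 tags and dashed lines ILCP over ALP ratios of 0.5 and 2. The corner above 30 tags in both stages lies almost wholly between the dashed lines, while below 30 tags many regions lie outside them.

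EILP entered the rule only as a minimum, so its height was also examined without that minimum. There were 4572 regions without TCF1 that had 30 tags or more in ALP and in ILCP and a ratio between 0.5 and 2. In EILP, 4003 of them reached 30 tags, 419 had 25 to 29 tags and 150 had fewer than 25. The lowest had 15 tags, and none of the 4572 lacked an EILP peak. Every one of these regions was thus called as open at the intermediate stage too.

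The members were tall against other DHS by construction and close to each other in height. In ALP their heights ran from 30 to 179 tags with a median of 42, in EILP from 30 to 180 with a median of 41, and in ILCP from 30 to 181 with a median of 44. Over all regions in the 3 lists the medians were 17, 17 and 18 tags. Scaled heights are tags per 1000000 tags of the list, and the members' medians were 3.38 in ALP, 3.65 in EILP and 3.47 in ILCP. Most members sat near the threshold, 2301 of them (57.5%) with a lowest height of 30 to 39 tags, and 60 had 60 tags or more in each list. Members made up 703 of the 1000 tallest regions of ALP, 720 of EILP and 717 of ILCP. The strong stable regions with TCF1 made up 270, 277 and 277 of these, which left 27, 3 and 6 tall regions of any other kind.

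**Figure D2:**
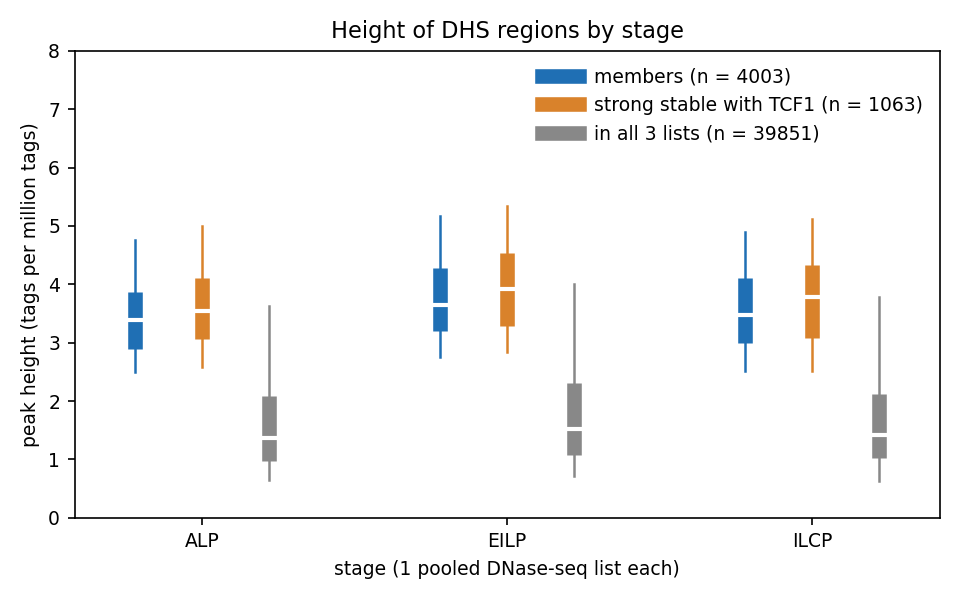
Scaled peak height in tags per 1000000 tags (y axis) by stage (x axis) for members, for strong stable regions with a TCF1 peak and for all regions in the 3 lists. Thick bars span the middle 50% of regions, thin lines the 5th to 95th percentile and white lines the median. The members' medians lie between 3.38 and 3.65, and those of the regions with TCF1 lie slightly higher, at 3.54, 3.92 and 3.79.

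Most members had similar heights in the 3 stages, a property that the rule selected on. The highest of its 3 scaled heights exceeded the lowest by a median factor of 1.21, against 1.47 over all regions in the 3 lists, and by less than 1.5 in 3802 members (95%), against 53.2% of those regions. The factor was 1.5 or more in 201 members and reached 1.98. In the strong stable regions with TCF1 the median factor was also 1.21. The median ILCP over ALP ratio of the members was 1.04, and 90% of members lay between 0.794 and 1.35. For a member of median height, with 44 tags in ILCP and 42 in ALP, the exact binomial 95% interval of the ratio ran from 0.657 to 1.60. The range that held 90% of members lies within this interval. Across the members the SD of the log2 ratio was 0.23, below the 0.31 that Poisson counting of the tags would give. It was 0.24 for members with 30 to 39 EILP tags against 0.33 from counting, and 0.19 for those with 60 to 99 tags against 0.27. For the 7 members with 100 EILP tags or more it was above counting, 0.28 against 0.18. The threshold in both lists, the choice of the highest point of each peak and the limit of 1 tag per position all bear on this spread, and their parts were not tested.

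At a change of 1.5 times, few members differed between neighbouring stages. In EILP against ALP, 95 of 4003 members (2.37%) were 1.5-fold higher and 6 (0.150%) were 1.5-fold lower, against a background of 16.9% and 6.66% of all regions in the 3 lists. In ILCP against EILP, 4 members (0.0999%) were higher and 70 (1.75%) lower, with a background of 7.48% and 17.1%. The strong stable regions with TCF1 gave 1.79% higher and 0.282% lower at the first step, and 0.0941% higher and 1.79% lower at the second. The regions of the background had median heights of 17 to 18 tags against 41 to 44 for members, and so a wider counting error. The threshold in every list limits all of these ratios in both groups of strong regions, so the counts are a description. For ILCP against ALP, which the rule used, the background was 15.2% higher and 14% lower, and 38 and 20 members passed the fold.

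The small excess of EILP depended on the scaling. Scaled by the tags of the file headers, EILP was the highest stage in 53.3% of members. The share was 42.2% in all regions in the 3 lists and 51.6% in strong stable regions with TCF1, which passed the same minimum height. That minimum was set in unscaled tags. The lowest scaled height of a member was thus 2.67 in EILP, 2.42 in ALP and 2.37 in ILCP. The part of the minimum in the share of 53.3% was not tested. For members, the median ratio of EILP to the mean of ALP and ILCP was 1.08. When the stages were scaled by the median height ratio of all shared regions instead, EILP was the highest stage in 30.6% of members, ALP in 33.8% and ILCP in 32.7%, and the median ratio was 0.996. With that scaling the counts at 1.5-fold became 20 higher and 27 lower for EILP against ALP, and 14 higher and 21 lower for ILCP against EILP. The background with that scaling was 11.5% and 11.4% of all regions in the 3 lists for the first step, and 9.68% and 13.7% for the second. The EILP file had 0.905 times the tags of the ALP file, while the median height of a shared region was 1.00 times that in ALP. No direction between stages is therefore drawn from the members as a whole.

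The most even members had almost identical scaled heights. On chromosome 17 at 56766238 to 56766842 the heights were 51 tags in ALP, 46 in EILP and 52 in ILCP, and on chromosome 9 at 70390330 to 70390785 they were 53, 48 and 54. In both regions the highest scaled height was 1.003 times the lowest. A pair of regions on chromosome 14, at 52639308 to 52639558 and at 79790348 to 79790775, shared the heights 41, 37 and 42, a factor of 1.006. On chromosome 12, the region at 112127270 to 112127884 had 49, 44 and 50 tags, a factor of 1.007. Differences this small are inside counting error, as the interval of the ILCP over ALP ratio ran from 0.665 to 1.5 for the first of these regions.

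A few members stood out in EILP in spite of similar ALP and ILCP heights. The largest excess lay on chromosome 11 at 3032709 to 3033092, with 45 tags in ALP, 79 in EILP and 45 in ILCP. Its scaled EILP height was 1.96 times that of ALP and ILCP pooled (exact binomial 95% interval 1.43 to 2.68). The surrounding sequence was rich in tags in each stage, with a local background between 9.22 and 9.44 tags, a quantity described with the tallest members. The next was on chromosome 14 at 120674725 to 120675064, with 41, 58 and 33 tags and a ratio of 1.75 (1.22 to 2.5). Those on chromosome 17 at 71947976 to 71948283 (32, 53 and 37 tags), on chromosome 3 at 35964798 to 35965147 (32, 52 and 36) and on chromosome 17 at 74242591 to 74243009 (31, 53 and 39) had ratios between 1.69 and 1.72. For all 5 the interval lay above 1 with either scaling, but they were picked as the extremes of 4003 regions.

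At the other end, EILP dipped below both other stages. The lowest ratios were on chromosome 11 at 98650220 to 98650540 (51, 30 and 47 tags, ratio 0.684), at 95170851 to 95171236 (44, 31 and 56, ratio 0.693) and at 117710283 to 117710704 (53, 30 and 42, ratio 0.705). The remaining 2 were on chromosome 2 at 152656884 to 152657286 (61, 42 and 71, ratio 0.711) and on chromosome 1 at 51641604 to 51642330 (47, 30 and 46, ratio 0.721). The intervals of all 5 included 1 when scaled by the tags of the file headers. Scaled by the median height ratio of shared regions, those of 4 lay below 1, with upper limits of 0.938 to 0.994, and that of the chromosome 1 region still included 1. These too were picked as extremes. The chromosome 2 region lay 24 bp from a TCF1 peak. The minimum of 30 tags in EILP limits how low such a ratio can be.

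Regions on either side of the minimum of 30 tags were alike in height. A lowest height of exactly 30 tags was found in 289 members. The lowest scaled heights belong to those with 30 tags in ILCP, and the first 3 of these by position lay on chromosome 1 at 34567327 to 34567826 (35, 33 and 30 tags in ALP, EILP and ILCP), at 58368068 to 58368561 (31, 31 and 30) and at 74171730 to 74172125 (34, 39 and 30). Just outside the rule, with a lowest height of 29 tags, the largest lowest scaled heights belong to regions with 29 tags in EILP, and the first 3 of these by position were on the same chromosome at 31006527 to 31007296 (35, 29 and 45), at 146177394 to 146178041 (39, 29 and 34) and at 154751662 to 154751989 (37, 29 and 37). The lowest ILCP over ALP ratios among members were 0.560 on chromosome 10 at 74599779 to 74600341 (56, 37 and 32 tags), 0.562 on chromosome 1 at 195027517 to 195028002 (54, 44 and 31) and 0.588 on chromosome 2 at 167979926 to 167980367 (50, 34 and 30). These 3 regions fell in step from stage to stage in tags. The highest ratios were 1.80 on chromosome 4 at 19636118 to 19636517 (36, 50 and 66 tags), 1.77 on chromosome 18 at 65471961 to 65472442 (31, 40 and 56) and 1.76 on chromosome 4 at 107562603 to 107562924 (30, 47 and 54). For all 6 the counting interval of the ratio lay to one side of 1, but they were picked as the extremes of 4003 regions on a value that the rule used. The region that the ratio excluded was on chromosome 11 at 3057441 to 3058042, with 30, 111 and 75 tags and a ratio of 2.45.

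The very tallest members differed from the rest in local background. Each list gives a fold enrichment, which is the ratio of the height plus 1 to the local background plus 1, and the local background follows from it. Without a control this background is the tag density of the 10 kb around the peak, or the genome average where that is higher. In the same unit as the height, it had a median of 1.92 tags for members in ALP, 1.87 in EILP and 2.05 in ILCP, against 1.11, 1.08 and 1.15 over all regions in the 3 lists. In the strong stable regions with TCF1 the medians were 2.15, 2.14 and 2.32. The window holds the tags of the peak itself, so regions chosen for height have a higher value in part by construction. The tallest member was on chromosome 9 at 35112760 to 35113209, with 179 tags in ALP, 180 in EILP and 181 in ILCP. With 1 tag kept per position and 100 bp fragments on both strands, no height can exceed 200, so these values are near the ceiling and understate any difference. Its local background was 5.22 to 5.57 tags.

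Of the 10 tallest members, ranked by their lowest scaled height, 9 had a local background above 5 tags in at least 1 list. On chromosome 2, 4 members lay within a stretch from 98502405 to 98507498. The region at 98506385 to 98507498 had 163, 163 and 160 tags, that at 98502405 to 98503144 had 159, 158 and 159, that at 98503928 to 98504211 had 105, 99 and 108, and that at 98505228 to 98505364 had 96, 90 and 98. The local background of these 4 lay between 23.8 and 24.7 tags, and their EILP fold enrichment between 3.67 and 6.62, against 14.9 for the median member. On chromosome 17, the region at 39983423 to 39983708 had 117, 138 and 153 tags on a local background of 55.9, 62.6 and 74.1 tags, and a fold enrichment of only 2.18 in EILP. At the start of chromosome 9, the region at 2999981 to 3000558 had 117, 112 and 120 tags, and that at 3025443 to 3025615 had 101, 102 and 105. On chromosome 1, the region at 90173587 to 90174441 had 102, 98 and 110 tags on a background of 5.53 to 6.72. The exception was the region on chromosome 3 at 5860537 to 5860838, with 83, 107 and 138 tags and a local background of 1.5 to 2.4 tags. Its ILCP over ALP ratio was 1.63, with a counting interval of 1.23 to 2.16.

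In all, 57 of the 4003 members had a local background above 5 tags in at least 1 list, a limit chosen after the values were seen. So did 94 of the 39851 regions in all 3 lists, members included, and 11 of the 1063 strong stable regions with TCF1. The 57 members included 8 of the 9 members with 100 tags or more in any list. They were narrower than other members, with a median width of 307 bp against 425 bp, and had a median EILP fold enrichment of 6.98 at the highest peak against 14.9. Their heights were slightly more even, with a median highest over lowest of 1.16 against 1.21, and their summits lay within 20 bp of each other in 43.9% against 32.8%. On chromosome 9 alone, 20 members lay between 2999981 and 3.1 Mb. Over the genome 28 members on 5 chromosomes ended before 3.2 Mb, near the first peaks of the lists on these chromosomes. They were among 109 merged regions that ended there. Of those 28, 23 had a local background above 5 tags. No repeat annotation of mm9 was used here, and the part of repeated sequence in these heights was not tested. Without the 57 members, 3946 remained, and their median width and lowest height were 425 bp and 38 tags, as before.

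**Figure D3:**
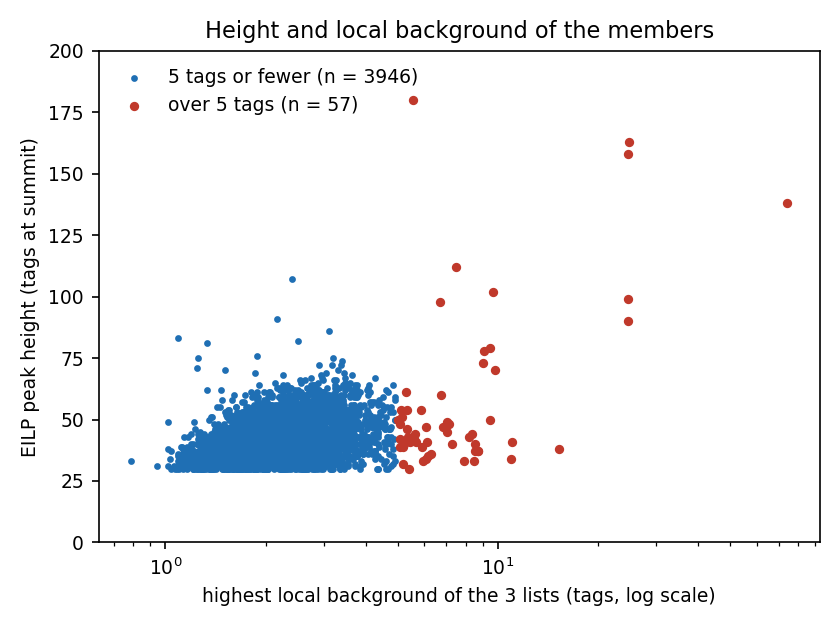
EILP peak height in tags (y axis) against the highest local background of the 3 lists in tags (x axis, log scale) for the 4003 members, with the 57 members above 5 tags in red. Most members form a dense cloud below 70 tags and below 5 tags of background, while 8 of the 9 members that reached 100 tags in any list are red.

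Other tall members stood on a low local background. The 10 tallest members with a local background of 5 tags or less and under 100 tags in every list were picked after the values were seen. The first was on chromosome X at 139917504 to 139917697, with 83, 83 and 85 tags on a background of 1.02 to 1.09. Its EILP fold enrichment of 41.6 was the highest of all members. On chromosome 11, the region at 108872923 to 108873416 had 81, 86 and 96 tags. A region at the start of chromosome 12, at 3109871 to 3110146, had 81, 75 and 78 tags, and one at the start of chromosome 6, at 3151394 to 3151617, had 72, 81 and 85. Next were chromosome 5 at 147072533 to 147072971 (71, 75 and 95 tags), chromosome 3 at 79432545 to 79433088 (70, 65 and 73) and chromosome 8 at 20020263 to 20020596 (70, 91 and 78). The last were chromosome 9 at 123371010 to 123371332 (70, 76 and 89), chromosome 15 at 74917085 to 74917472 (88, 63 and 76) and chromosome 16 at 57391539 to 57391836 (68, 82 and 89). In 9 of these 10 regions the counting interval of EILP against ALP and ILCP pooled included 1. The exception was the chromosome 8 region, with an interval of 1.05 to 1.80. Scaled by the median height ratio of shared regions, that interval was 0.969 to 1.66 and also included 1. Widths of these 10 regions ran from 194 bp on chromosome X to 544 bp on chromosome 3, against a median of 425 bp for members. The part of repeated sequence in their heights was not tested.

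Most strong stable regions carried no TCF1 peak. The share was 79.0% (95% Wilson interval 77.9 to 80.1), against 92.2% (91.9 to 92.4) of all regions in the 3 lists. Among strong stable regions the share without TCF1 was 82.5% (80.5 to 84.2) at a lowest height of 30 to 34 tags, 79.8% (77.0 to 82.2) at 40 to 44 tags and 71.2% (67.3 to 74.7) at 50 to 59 tags. The share was lower in taller classes up to 60 to 69 tags, where 40 of 61 regions had none. The interval of each class overlapped that of the next, and those of the 3 classes from 30 to 44 tags all overlapped. At 70 tags or more, 20 of 23 regions had none, and of the 9 with a local background of 5 tags or less 8 had none. Taller regions were also wider, as given with their shape. The TCF1 list was shallow, with a median peak height of 5 tags, and 176 of the 1063 strong stable regions with TCF1 (16.6%) had a highest TCF1 peak of 5 tags or fewer. A member is therefore a region without a called peak, and weaker TCF1 signal there was not detectable at this depth. Per the labels, 2 further libraries with TCF1 in the title were described as IgG, and the file headers show their library number within the control used to call TCF1 peaks. Neither their part in the absence of called peaks nor that of the Tcf7EGFPnull/+ genotype given for EILP was tested.

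**Figure D4:**
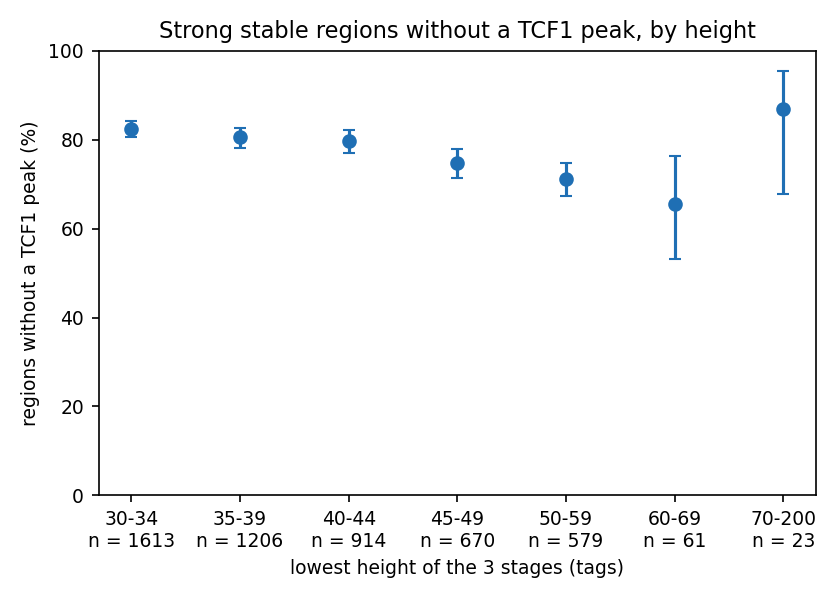
Share of strong stable regions without a TCF1 peak (y axis, percent) by the lowest height of the 3 stages in tags (x axis). Points are shares, bars are 95% Wilson intervals and n is the number of regions. The share declines from 82.5% at 30 to 34 tags to 71.2% at 50 to 59 tags, and the last class of 23 regions departs from this.

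Most members lay far from TCF1, though more were within 1 kb of it than among open regions in general. The nearest TCF1 peak was a median of 56042 bp away, against 63628 bp for all regions in the 3 lists that had no TCF1 overlap. A TCF1 peak lay within 1 kb of 269 members (6.72%), against 3.80% of those regions. The closest pairs were 13 bp apart on chromosome 13 at 54789427 to 54789795 (37, 41 and 36 tags), 15 bp on chromosome 11 at 74643716 to 74644080 (35, 42 and 47) and 17 bp on chromosome 4 at 41688128 to 41688445 (41, 39 and 45). The farthest members were on chromosome X at 121268350 to 121268628 (43, 34 and 48 tags), with the nearest TCF1 peak 6189731 bp away, and on chromosome 15 at 44450459 to 44450919 (45, 46 and 36; 5918316 bp) and 44259048 to 44260032 (54, 61 and 52; 5726905 bp).

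In shape the members were mostly single peaks, as were DHS in general. Their median width was 425 bp, with 90% between 284 and 721 bp. Over all regions in the 3 lists the median was 291 bp. Exactly 1 peak in each list was held by 91.7% of members, 94.9% of those regions and 90.5% of strong stable regions with TCF1. The summits of the 3 stages lay a median of 38 bp apart in members and 36 bp in all regions in the 3 lists. All summits lay within 20 bp in 1318 members (32.9%), against 30.8%, and more than 100 bp apart in 271 (6.77%), against 11.3%. For strong stable regions with TCF1 these values were 48 bp, 25.6% and 13.0%. At equal height the members were narrower than strong stable regions with TCF1. At a lowest height of 30 to 34 tags the median width was 383 bp (exact binomial 95% interval 375 to 393) against 419 bp (402 to 437), and at 50 to 59 tags 494 bp (481 to 512) against 541 bp (520 to 586). The intervals overlapped at 35 to 39 tags (404 to 419 bp against 417 to 464 bp) and at 40 to 44 tags (430 to 449 bp against 443 to 498 bp). The part of width in the overlap with TCF1 was not tested. The widest members were on chromosome 5 at 109985779 to 109987102 (1324 bp), chromosome 3 at 19527954 to 19529231 (1278 bp) and chromosome 19 at 8893734 to 8894870 (1137 bp). The 3 narrowest, of 124, 132 and 132 bp, all lay near the start of chromosome 9, at 3002923, 3002253 and 3004748, with local backgrounds of 7.78 to 8.73 tags.

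Members were spread over all chromosomes. They were 3.91% of merged regions in all, from 1.97% (1.44 to 2.68) on chromosome X to 5.50% (4.96 to 6.09) on chromosome 7, with 5.09% (4.52 to 5.73) on chromosome 8. On chromosome X, 39 of 1979 regions were members, and of the X regions open in all 3 lists 5.43% were, against 10.0% over the genome. The sex of the mice is not given in the labels used here. Chromosomes 12, 13, 14 and 15 had 3.07% to 3.26%, the lowest among autosomes.

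**Figure D5:**
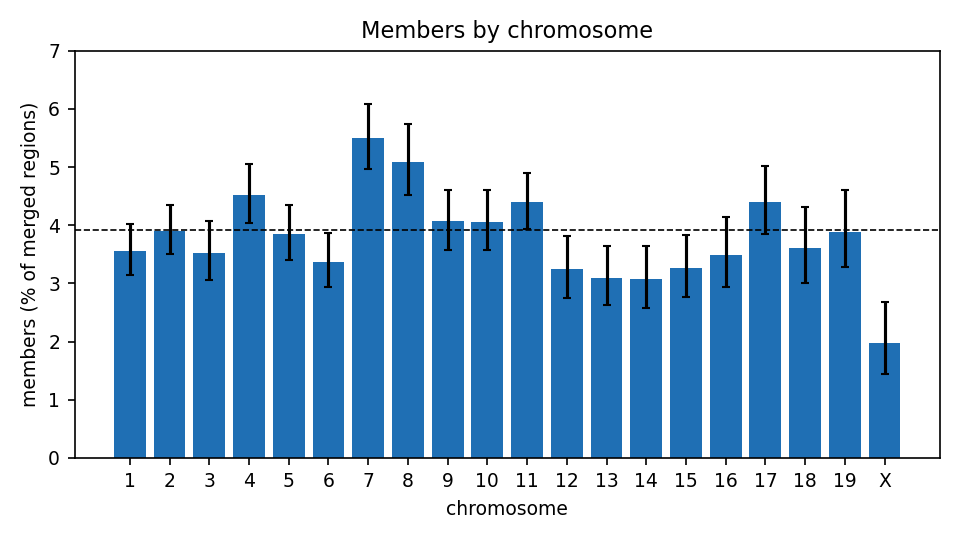
Members as a percentage of the merged regions of each chromosome (y axis), for chromosomes 1 to 19 and X (x axis). Bars are shares, error bars are 95% Wilson intervals and the dashed line is the share over the genome, 3.91%. Chromosome 7 is highest at 5.50% and chromosome X lowest at 1.97%.

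Along the chromosomes, 1637 members (40.9%) had another member within 50 kb, and the median distance to the next member was 68079 bp. For the 39851 regions in all 3 lists, which are more numerous, the share was 91.6% and the median distance 8582 bp. For the 1063 regions with TCF1, which are fewer, the share with another of their kind within 50 kb was 14.3% and the median distance 313720 bp. These shares depend on the number of regions in each group, and no clustering is read from them. Members fell in 1345 of the 2346 windows of 1 Mb that held any region, with a median of 2 per window, and 37 windows held 10 or more, with 506 members (12.6%) among them. The richest window was on chromosome 10 from 80000001 to 81000000, where 27 of 197 regions were members. The next window up the list adjoined it, from 79000001 to 80000000, with 22 of 163. On chromosome 17 from 56000001 to 57000000 there were 21 members among 123 regions, and on chromosome 7 from 52000001 to 53000000 there were 21 among 169. The window on chromosome 9 from 3000001 held 19 members among only 30 regions, with a median over members of the highest local background of 8.45 tags, against 2.65 to 3.19 tags in the other 4 windows.

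Members were left out of the DHS counted around them, so that most of these were weaker follows largely from the rule. Fewer than 1 in 2 was open at all 3 stages. Over all 102313 merged regions, members included, 39851 were. Within 1 kb of a member there were 1553 other regions, with a median highest height of 17 tags, and 40.2% (37.8 to 42.7) of them had a peak in all 3 lists. At 20 to 100 kb the share was 40.3% (39.7 to 40.9), and beyond 100 kb it was 33.5% (33.1 to 33.9). The median highest height there was 13 and 12 tags. Around the strong stable regions with TCF1 the share was 42.7% (38.3 to 47.3) within 1 kb and 37.3% (37.0 to 37.6) beyond 100 kb. Weak neighbours differed: among regions under 15 tags in every list, 5.12% (3.63 to 7.17) of the 606 within 1 kb of a member were in all 3 lists, against 12.9% (12.4 to 13.4) at 20 to 100 kb. Around the strong stable regions with TCF1 the corresponding shares were 4.32% (1.99 to 9.10) and 12.7% (11.9 to 13.5). A weak peak that overlaps a member in any list is merged into it and drops out of this count. Of the regions within 1 kb of a member, 8.11% (6.86 to 9.58) overlapped a TCF1 peak, against 3.63% (3.48 to 3.79) beyond 100 kb. Around the strong stable regions with TCF1 these shares were 9.03% (6.73 to 12.02) and 2.92% (2.804 to 3.032). The higher share nearby was thus not particular to members.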

How the data were processed

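The data were 3 DNase-seq peak lists and 1 TCF1 CUT&RUN list, each called on pooled tags. Per the file headers, the authors used MACS 2.1.1.20160309 and kept peaks with a q-value under 0.05. Tags were 50 bp, at most 1 was kept per position, fragments were 100 bp and the DNase-seq background window was 10 kb, per the file headers. The submitters' processing notes name mm9 as the build. The aligner is not given in the sources used here. Height is the deposited pileup signal at the summit, in tags. Strength is the deposited fold enrichment, a ratio, and the deposited −log10 q-value was used only for TCF1 peaks, in an alternative.

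Peaks were merged at 1 bp overlap, and the highest pileup per list was divided by the tags of the file headers. Local background was computed as the height plus 1 over the fold enrichment, minus 1. Shares have 95% Wilson intervals, medians exact binomial intervals, and ratios of tags exact conditional binomial intervals. No test was run, since each stage is 1 pooled list. The code was run on simulated lists that held the EILP peaks at identical positions in each stage, with heights free of counting noise. Simulated TCF1 peaks lay only on regions that height or ratio already excluded. The run therefore did not test the merging of partly overlapping peaks, the EILP minimum or the TCF1 exclusion. Python 3.11.15, pandas 2.3.3 and scipy 1.17.1 were used.

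Named regions followed a rule: the 10 tallest, the 5 highest and 5 lowest in EILP, the 5 most even, the 3 widest, narrowest, nearest to and farthest from TCF1, the 3 on each side of each threshold, and the richest windows. The members, rule and alternatives were chosen with earlier results of these data known. Planned counts at gene starts, CpG content and motifs were not run, because no mm9 annotation or sequence was used here.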

Additional observations from a re-analysis of the deposited data

How the results depend on the processing

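No paired analysis was possible because each list pools its libraries, so no library was left out either. Of 88 alternative values, 70 stayed within the 95% interval of the value or, for the number of members, within 1.5 times, and 18 did not. The changes of scaling and the limit of 2 kb returned the same 4003 members. Their widths, lowest heights, summit distances and spacing could therefore not differ, and the tally is no measure of robustness. With 25 tags as the minimum there were 6010 members, 81.4% of strong stable regions lacked TCF1, the median width was 406 bp, the median lowest height 33 tags, and 50.6% had another member within 50 kb. With 40 tags these were 1702 members, 75.7%, 456 bp, 45 tags and 22.2%. The median ratio of EILP to the mean of ALP and ILCP was 0.996 scaled by the median height ratio of shared regions, 0.962 without scaling, and 0.999 with fold enrichment in place of height. With EILP peaks as units that share at least 50% of the shorter peak with an ALP and an ILCP peak, the median width was 364 bp. The share without TCF1 was 76.0% when no TCF1 peak was allowed within 500 bp and 80.8% when only TCF1 peaks with a q under 0.01 counted. Another member lay within 10 kb of 12.1% of members and within 200 kb of 74.9%. Leaving out chromosome X, regions over 2 kb, members with a local background above 5 tags or those with 100 tags or more moved none of these values out of its interval. The last 2 alternatives were added after seeing the data, as were the intervals of named members under the median height ratio. Counts at gene starts, CpG content and motifs, with their alternatives, were not run. Pooled lists hide the spread between libraries and mice, and the absence of a TCF1 peak is limited by a median TCF1 height of 5 tags.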
